A study of Mus musculus with 24 samples.

Results

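The genes described here are the 43 members of a list of the TGF-beta and BMP pathway, looked up by symbol among the 49452 genes of the deposited expression table. The rule of the list is gene function, and it was drawn up with earlier results of these data in view. All 43 symbols were found, as 10 ligands, 12 receptors and co-receptors, 5 antagonists, 5 genes of ligand latency and processing, 7 Smads and 4 Id genes.

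TGF-beta and BMP ligands are secreted dimers that bring type II and type I receptor kinases together at the cell surface. TGF-beta and activin receptors pass the signal mainly through Smad2 and Smad3, BMP receptors mainly through Smad1 and Smad5, and both arms share Smad4, while Smad6, Smad7 and extracellular antagonists restrain them. In adipose tissue TGF-beta is known to hold precursors in a fibroblast-like state, and several BMPs are known to promote commitment to the white or the brown lineage.

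The libraries came from stromal-vascular fraction (SVF) cells, the precursor-rich fraction of fat, of male C57BL/6 mice of a few weeks of age. Cells of brown adipose tissue (BAT) or of epididymal visceral white fat (vWAT) received an siRNA by nucleofection. It was either a non-targeting siRNA (siCtrl) or one against the long non-coding RNA H19 (siH19). RNA was taken at day 0 (d0) or at day 3 (d3) of adipocyte differentiation. Every siH19 title names the same siRNA, number 3, so effects of that siRNA and of H19 loss cannot be told apart here. Each of the 8 groups of depot, siRNA and day held 3 libraries. The study asked what H19 does in differentiating brown and white fat cells. BAT could be pooled over mice. The induction medium already differed, with indomethacin and triiodothyronine named for BAT and rosiglitazone and isobutylmethylxanthine for vWAT cultures. After induction BAT cultures received triiodothyronine where vWAT cultures received rosiglitazone. Nothing in the labels says that the 3 libraries of a group came from separate animals, so p-values measure the spread between these libraries, which may be technical. All BAT libraries carry one prefix in the sample descriptions and all vWAT libraries another, so any difference between these sets of libraries and the depot cannot be told apart.

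Values are FPKM (as mean ± SD, over the 3 libraries of a group), fragment counts scaled by transcript length and library size, so that levels can be compared between genes. The depth in reads is unknown, and the relative depth, read from the low values, ran from 0.825 to 0.983 in the BAT and from 1.02 to 1.17 in the vWAT libraries. Libraries of a group correlated at r = 0.988 to 0.991 over genes on the log2 scale. Differences are given ± SE on the scale of log2(FPKM + 1), which understates the change of genes of low level. A gene was tested in a comparison where at least 3 libraries reached FPKM 1, and it was called at an adjusted p under 0.05 over all genes tested with a change of at least 1.3-fold. H19 itself was at 108, 160.4 and 122 FPKM in siCtrl and 2.82, 5.20 and 5.05 in siH19 BAT cells at d0, and at 99.7, 86.4 and 83.2 against 12.04, 12.1 and 16.9 at d3. In vWAT cells it was at 12.3, 11.3 and 11.6 against 1.23, 0.630 and 1.76 at d0 and at 8.67, 8.19 and 8.90 against 0.327, 0.291 and 0.966 at d3, so siH19 and siCtrl libraries did not overlap in any of the 4 settings.

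Adipocyte markers were present in both depots. The summed FPKM of 8 adipocyte markers was 3171 to 3448 at d0 and 38356 to 40089 at d3 in siCtrl BAT cells. In siCtrl vWAT cells it was 4167 to 4169 at d0 and 19580 to 20564 at d3, and Ucp1 was listed at 0 in every vWAT library. The summed FPKM of 6 brown adipocyte markers was 550.3 to 616 in siCtrl BAT and 132 to 149.9 in siCtrl vWAT cells at d3. At d0 it was 7.24 to 9.26 in siCtrl BAT cells, below the 15.2 to 18.6 of siCtrl vWAT cells. The sum at d0 so went against the label of the BAT cells, and that order came from Dio2. Dio2 had a mean of 5.01 in a mean sum of 8.01 in BAT cells and of 15.2 in 16.3 in vWAT cells. Of the 6 markers, 3 averaged at least FPKM 1 in BAT cells and 1 in vWAT cells. Markers of other cells were also found. The summed FPKM of 10 macrophage markers was 151 to 184 in siCtrl and 90.1 to 104 in siH19 BAT cells at d3 and 621 to 674 in siCtrl vWAT cells at d3, that of 5 mesothelial markers was at most 9.996 in BAT and 37.3 to 132 in vWAT, and that of 5 skeletal muscle markers was 19.3 to 61.0 in BAT and at most 0.0626 in vWAT. Of 8 endothelial markers, 1 averaged an FPKM of at least 1 in siCtrl BAT cells at d3. These values are of bulk RNA, in which fewer cells of a type and less RNA per cell cannot be told apart.

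H19 knockdown in differentiating BAT cells went with higher levels of part of the pathway. Of the 36 members tested at d3, 8 were called higher in siH19 than in siCtrl cells and none lower: the ligands Tgfb2, Tgfb3 and Bmp6, the receptors Tgfbr1 and Acvrl1, the antagonist Fst, the inhibitory Smad7 and the protease Bmp1. Of all 12500 genes tested, 8.57% were called, 6.39% as higher and 2.18% as lower. The median difference of the 36 members was 0.23 on the log2 scale against 0.05 over all genes tested, and 31 of the 36 lay above 0. In 21 members the 3 siH19 libraries were all above the 3 siCtrl libraries, which held for 24.2% of all genes. Bmp4, Ltbp1 and Bambi reached the level for a test through their siH19 libraries alone. They could so count only on the higher side in these numbers, and they were not called. After rescaling each library by its median ratio the same number of members, 8, was called higher and none lower, while the higher calls among all genes called went from 74.6% to 60.5%.

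Among the ligands, Tgfb3, 1 of the 3 TGF-beta isoforms, was at 6.41, 6.37 and 6.89 FPKM in the siCtrl and at 10.2, 11.3 and 10.5 in the siH19 libraries (log2 difference 0.63 ± 0.07, limma adjusted p = 0.00404). The gap between the groups was larger than the spread within them. Bmp6, a BMP ligand best known for iron control, was at 1.37, 1.28 and 1.25 against 2.27, 2.58 and 2.40 FPKM (log2 difference 0.57 ± 0.09, limma adjusted p = 0.00977), a mean 1.86 times that of siCtrl at a low level. Tgfb2, another isoform, was at 1.64, 1.34 and 1.01 in siCtrl and 2.36, 4.88 and 2.93 in siH19 cells (log2 difference 0.88 ± 0.22, limma adjusted p = 0.0423), with the second siH19 library standing well above the other 2. That library had the lowest relative depth of all 24 libraries, 0.825, and the most otherwise abundant genes listed at 0, 36. Leaving that library out gave 0.65 and no call, and the call was also lost without siH19 replicate 3 or without any 1 of the siCtrl replicates, so that Tgfb2 was called in 1 of 6 leave-one-out fits. Tgfb1, the isoform with the highest level in BAT cells at d0, was at 10.2, 8.74 and 9.77 against 9.61, 10.4 and 10.2 FPKM at d3 (log2 difference 0.07 ± 0.08, limma adjusted p = 0.589) and overlapped between the groups. Bmp4, a BMP of white lineage commitment, stood at 0.735 ± 0.201 (SD, n = 3) against 1.04 ± 0.0515 FPKM and was not called (limma adjusted p = 0.232). Gdf10, a BMP3-like ligand, did not pass either, at 10.2 ± 1.68 against 8.80 ± 1.22 FPKM (limma adjusted p = 0.404). Bmp2, Bmp5, Bmp7 and Gdf6 were too low in BAT cells to be tested.

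Among the receptors, Tgfbr1, the type I receptor for TGF-beta, was at 9.61, 9.07 and 8.54 FPKM in siCtrl and 13.2, 13.95 and 12.5 in siH19 cells (log2 difference 0.50 ± 0.07, limma adjusted p = 0.00803). Acvrl1, a type I receptor for TGF-beta and for BMPs of the circulation best known in endothelium, was at 5.53, 3.70 and 4.98 against 8.08, 12.1 and 8.09 FPKM (log2 difference 0.85 ± 0.19, limma adjusted p = 0.0276). Here too the second siH19 library was the highest, and the difference without it was 0.68 and not called, as was the one without siCtrl replicate 2 or 3. The type II partner Tgfbr2 was at 13.5 ± 0.549 against 15.4 ± 0.720 FPKM with no overlap of the libraries but an adjusted p of 0.109 by limma. Acvr1b, the type I receptor for activins, differed by 0.43 ± 0.12, limma adjusted p = 0.0528, and the co-receptor Eng by 0.34 ± 0.10, limma adjusted p = 0.0589, and neither was called. For the main BMP receptors the differences were small: Bmpr1a was at 29.7 ± 3.31 against 30.9 ± 0.975 FPKM and Bmpr2 at 5.51 ± 0.677 against 6.51 ± 0.922, with overlapping libraries. Acvr1, Acvr2a and the co-receptor Tgfbr3 were also tested and not called, and Bmpr1b and Acvr2b were below the level for a test.

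Fst encodes follistatin, which traps activins and some BMPs, and its FPKM was 21.8, 20.6 and 20.3 in siCtrl and 34.8, 30.1 and 31.05 in siH19 cells (log2 difference 0.59 ± 0.07, limma adjusted p = 0.00426). Nog, a BMP trap, lay at 2.90 ± 0.403 against 2.80 ± 0.208 FPKM and overlapped, and neither the related Fstl3 nor the pseudoreceptor Bambi was called. Bmp1, a metalloprotease that trims procollagens and frees ligands and is no BMP ligand itself, was at 60.1, 55.2 and 60.96 against 78.2, 80.9 and 79.6 FPKM (log2 difference 0.43 ± 0.05, limma adjusted p = 0.00411), again without overlap. Ltbp2, a matrix protein of the latent TGF-beta binding family, had a larger difference than Bmp1, 0.62 ± 0.19, limma adjusted p = 0.0701, but its siCtrl libraries spread from 39.1 to 61.7 FPKM and it was not called. Ltbp1, Ltbp3 and Ltbp4 were not called either.

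Smad7, which blocks both arms and is itself a target of TGF-beta, was at 9.79, 10.1 and 10.4 FPKM in siCtrl and 12.7, 16.5 and 13.3 in siH19 cells (log2 difference 0.45 ± 0.10, limma adjusted p = 0.0318). The second siH19 library was again the highest, and without it the difference was 0.34 and not called. The call was lost as well without siH19 replicate 3 or any 1 of the siCtrl replicates. Smad6, the inhibitor of the BMP arm, and the BMP targets Id1 and Id3 passed the adjusted p but stayed under 1.3-fold. Smad6 went from 28.7, 25.95 and 26.7 to 35.2, 34.4 and 35.5 FPKM (limma adjusted p = 0.00847). Id1 went from 115, 123 and 119.9 to 145, 136 and 144 (limma adjusted p = 0.0147). Id3 went from 168, 167 and 187 to 207, 214 and 223 (limma adjusted p = 0.0170). In all 3 the libraries of the 2 groups did not overlap. The signal-carrying Smad2, Smad3, Smad4 and Smad5 overlapped between the groups, and Smad1 did not overlap but missed the threshold (limma adjusted p = 0.0646). Id2 was at 14.8 ± 1.24 against 18.2 ± 0.789 FPKM (limma adjusted p = 0.0508), and Id4 differed by -0.01.

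**Figure D1:**
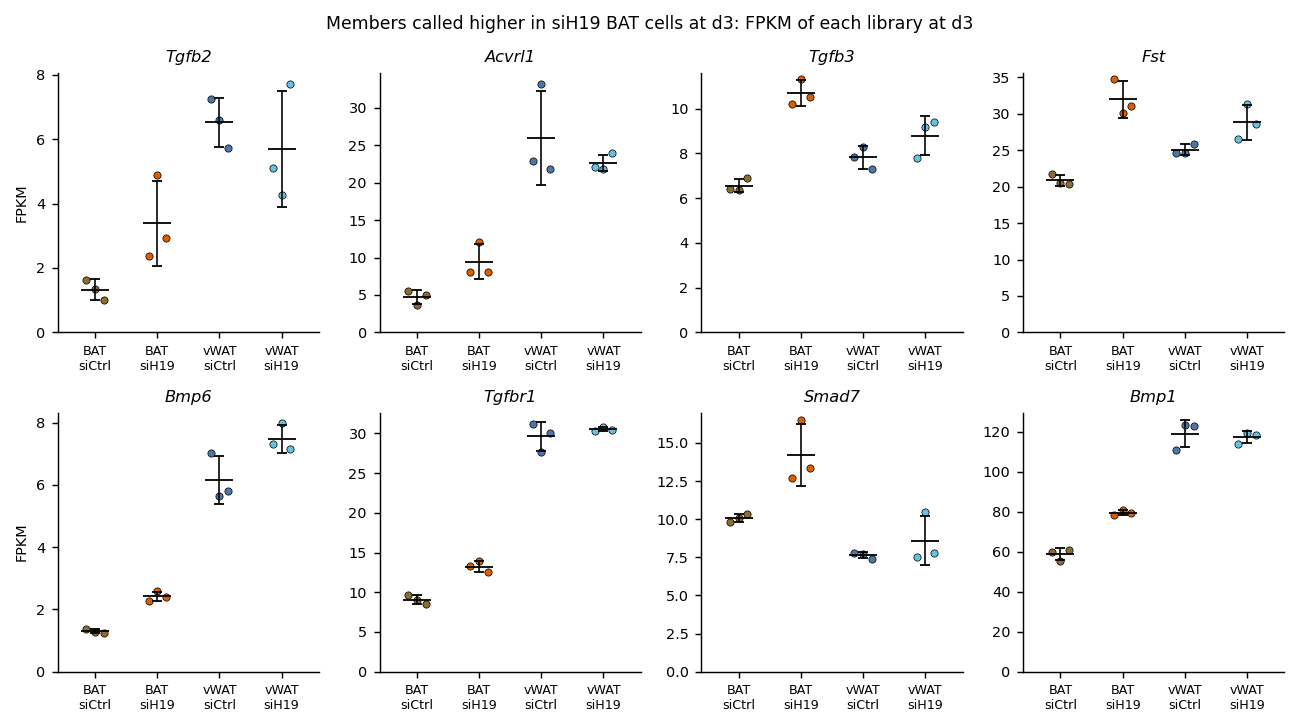
FPKM at d3 of the 8 members called higher in siH19 BAT cells; each point is 1 library, the line is the group mean and the bar 1 SD (n = 3), for BAT and vWAT cells with siCtrl or siH19. In BAT cells the 3 siH19 points lie above the 3 siCtrl points in all 8 panels, and the second siH19 library stands out for Tgfb2, Acvrl1 and Smad7.

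Of the 8 calls, Tgfb3, Bmp6, Fst, Bmp1 and Tgfbr1 were kept in all 6 leave-one-out fits, Acvrl1 in 3, and Tgfb2 and Smad7 in 1. With no filter on low values, and with the replicate number as a block, 5 members were called and Tgfb2, Acvrl1 and Smad7 were not. Other genes moved in the same libraries, where 6.39% of all genes tested were called higher and 2.18% lower. None of 8 adipocyte markers was called, with summed FPKM of 38356 to 40089 in siCtrl and 34870 to 37206 in siH19 cells. Of 7 tested markers of precursors and fibroblasts 3 were called higher, with summed FPKM of 727 to 834 in siCtrl and 1045 to 1168 in siH19 cells, and of 6 brown adipocyte markers 5 were called lower, at 550 to 616 against 316 to 378. Of 8 tested macrophage markers 5 were called lower, and 2 of 4 tested markers of pericytes and smooth muscle were called higher, with sums of 250 to 334 against 549 to 668. Most of that sum was Acta2, with a mean of 259 in a mean sum of 288 FPKM in siCtrl and of 556 in 593 in siH19 cells. No marker of these lists was at 0 in all 3 libraries of either group, and the part of cell makeup in the values of the members was not tested.

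The other genes of the pathway, a list of 61 further ligands, receptors, antagonists and modulators, had 16 of 42 tested called higher in siH19 BAT cells at d3 and none lower, with a median difference of 0.35. Of all genes tested, 6.39% were called higher and 2.18% lower. In siCtrl cells 39 of the list averaged at least FPKM 1 and in siH19 cells 42. A gene tested through its siH19 libraries alone could only be called higher, and such genes were not counted. Thbs1, an activator of latent TGF-beta, had the largest rise, from 59.1, 42.96 and 57.4 to 148, 166 and 115 FPKM (log2 difference 1.41 ± 0.17, limma adjusted p = 0.00431). Inhba, the activin A subunit, rose from 4.54, 4.19 and 4.77 to 12.5, 13.2 and 10.5 (log2 difference 1.25 ± 0.10, limma adjusted p = 0.00197). Inhbb, the activin B subunit, rose from 6.54, 5.22 and 6.54 to 14.2, 14.9 and 12.6 (log2 difference 1.07 ± 0.11, limma adjusted p = 0.00301). Of 20 genes known as TGF-beta targets, 11 were called higher and none lower, at a median of 0.53, among them Ctgf (1.44 ± 0.15, limma adjusted p = 0.00309) and the smooth muscle genes Tagln, Acta2 and Cnn1. That list holds Smad7, which is also a member, and Skil, Pmepa1 and Ldlrad4 of the other pathway genes, while Acta2 is also on the pericyte and smooth muscle list and Col1a1 on that of precursors and fibroblasts. Of 6 tested BMP targets outside the members 2 were called higher, Atoh8 and Runx2, at a median of 0.16.

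The promoters of 29 of the 43 members are in the RefSeq table used (37 windows of 300 bases, 250 before to 50 after the start, GRCm38.p6). Each was searched on both strands for the Smad palindrome GTCTAGAC, the shorter Smad element CAGACA and the BMP-type GC element GGCGCC, none of which contains another, with the share of all 32851 promoter windows as background. GTCTAGAC was in 1 member window, that of Smad6, against 0.213% of all windows. CAGACA was in 7 of the 37 windows (18.9%) against 21.0% of all, those of Bmp5, Bmpr1b, Fstl3, Ltbp1, Ltbp3, Tgfb2 and Tgfbr1. GGCGCC was in 12 of the 37 (32.4%) against 11.9% of all, in 10 members that include Id2, Id4, Grem1, Gdf10, Tgfbr1, Bmpr1a and Smad5. The cAMP response element TGACGTCA and the AP-1 site TGACTCA were searched too. Either was in 1 of the 37 windows (2.70%), against 1.79% and 5.20% of all. Overlapping windows of Ltbp4, and likewise of Smad5, count the same match again, and the GC content of the windows was not matched. These are matches of letters and not measured binding. A window with each Smad or BMP-type element is shown for 1 inhibitor, 1 ligand and 1 target gene, with the matched letters in capitals: Smad6 on the minus strand of chr9:64022010-64022309, with the match across the transcription start, Tgfb2 on the minus strand of chr1:186705940-186706239, and Id2 on the minus strand of chr12:25096043-25096342.
Smad6: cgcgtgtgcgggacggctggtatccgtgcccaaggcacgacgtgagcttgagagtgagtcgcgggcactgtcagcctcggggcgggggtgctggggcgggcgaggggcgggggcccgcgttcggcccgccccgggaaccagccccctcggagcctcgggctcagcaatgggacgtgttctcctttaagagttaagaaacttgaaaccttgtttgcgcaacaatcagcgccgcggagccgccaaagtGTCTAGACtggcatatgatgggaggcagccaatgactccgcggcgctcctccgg
Tgfb2: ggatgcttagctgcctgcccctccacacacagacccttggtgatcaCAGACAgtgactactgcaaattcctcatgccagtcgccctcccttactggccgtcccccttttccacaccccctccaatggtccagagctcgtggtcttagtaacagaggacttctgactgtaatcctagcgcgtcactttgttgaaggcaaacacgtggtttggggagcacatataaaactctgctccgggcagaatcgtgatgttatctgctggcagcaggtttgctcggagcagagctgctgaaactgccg
Id2: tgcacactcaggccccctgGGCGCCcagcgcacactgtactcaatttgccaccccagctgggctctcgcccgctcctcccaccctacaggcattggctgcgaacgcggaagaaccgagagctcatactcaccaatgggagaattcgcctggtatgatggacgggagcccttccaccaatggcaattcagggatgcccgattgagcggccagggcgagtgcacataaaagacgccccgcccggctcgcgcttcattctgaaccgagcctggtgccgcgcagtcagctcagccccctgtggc

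Whether the siH19 difference at d3 itself differed between BAT and vWAT cells was tested in 1 model over the 12 d3 libraries, at an adjusted p under 0.05 with no minimum size. Of the 38 members tested, 6 had a larger difference in BAT cells and none a smaller one, where 10.5% of all genes tested passed, 7.02% as higher. They were Acvrl1 (1.02 ± 0.26, limma adjusted p = 0.0358), Acvr1b (0.54 ± 0.13, limma adjusted p = 0.0280), Tgfb3 (0.48 ± 0.11, limma adjusted p = 0.0208), Tgfbr1 (0.45 ± 0.09, limma adjusted p = 0.00895), Bmp1 (0.45 ± 0.07, limma adjusted p = 0.00404) and Fst (0.40 ± 0.10, limma adjusted p = 0.0290), as log2 differences between the depots' differences with their SE. Tgfb2 had the widest gap, 1.08 ± 0.32, limma adjusted p = 0.0584, and did not pass. Among all genes that passed, 66.6% were higher in this test as fitted and 45.6% after rescaling by the median ratio, under which Fst no longer passed. Tgfbr1 and Bmp1 passed in all 12 leave-one-out fits, Tgfb3 in 10, Acvrl1 and Acvr1b in 5 each and Fst in 4. With no filter on low values Fst, Acvr1b and Acvrl1 did not pass. The number of members that passed was 2 without vWAT siCtrl replicate 2 and 3 without BAT siCtrl replicate 2, BAT siCtrl replicate 3 or vWAT siH19 replicate 1. In the same test the siH19 difference was lower in BAT than in vWAT cells for 6 of 8 adipocyte, 5 of 6 brown adipocyte and 7 of 9 macrophage markers (medians -0.25, -1.24 and -0.76) and higher for 3 of 8 precursor and fibroblast markers (median 0.42), and their part in the values of the members was not tested.

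In vWAT cells at d3 no member was called out of 37 tested by limma, and 4 of all 13097 genes were (0.0305%), 0.00764% as higher and 0.0229% as lower. In 9 members the siH19 libraries were all above the siCtrl libraries and in none all below, which held for 7.67% and 8.57% of all genes. At an unadjusted p under 0.05, 8 members passed, all higher in siH19 cells, beside 10.04% of all genes. They were Bmp6, Fst, Acvr2a, Ltbp4, Smad6, Id1, Id2 and Id4. Of the members called in BAT cells, Tgfb3 was at 7.85, 8.30 and 7.30 FPKM in siCtrl and 7.81, 9.20 and 9.39 in siH19 libraries (log2 difference 0.15 ± 0.09, limma adjusted p = 0.631). Tgfb2 was at 7.25, 6.59 and 5.74 against 5.11, 4.26 and 7.71 (log2 difference -0.20 ± 0.19, limma adjusted p = 0.794). Both sets overlapped. Tgfbr1 was at 29.6 ± 1.84 against 30.6 ± 0.270 FPKM, with a 95% interval of the log2 difference from -0.09 to 0.18.

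Before differentiation, at d0, few members were called between siH19 and siCtrl cells in either depot. In BAT cells 1 of 38 was called, where 1.94% of all genes were (0.617% higher and 1.32% lower). It was Bmpr1b, a type I BMP receptor, at 4.60, 4.96 and 5.11 FPKM in siCtrl and 6.49, 7.60 and 7.25 in siH19 cells (log2 difference 0.46 ± 0.08, limma adjusted p = 0.0447). Its libraries did not overlap, but the call was kept in none of the 6 leave-one-out fits. Tgfb2 was at 9.84, 8.32 and 9.95 against 13.7, 13.3 and 10.3 and not called (log2 difference 0.37 ± 0.12, limma adjusted p = 0.171). Id3 and Smad6 passed the adjusted p on the lower side under 1.3-fold, Smad6 at 66.1 ± 0.887 against 57.1 ± 0.441 and Id3 at 371 ± 7.21 against 322 ± 4.69 FPKM. The median member differed by -0.03, as did the median of all genes. In 5 members the siH19 libraries were all above and in 10 all below those of siCtrl, against 10.6% and 16.1% of all genes. In vWAT cells 2 of 38 were called higher, Id4 and Smad6, beside 1.53% of all genes (0.329% higher and 1.2% lower). Here 12 members had all siH19 libraries above and 7 all below, against 8.36% and 16.2% of all genes. Id4 went from 16.2, 14.3 and 17.5 to 25.9, 23.5 and 23.2 (log2 difference 0.57 ± 0.09, limma adjusted p = 0.0293). Smad6 went from 36.04, 35.5 and 37.2 to 56.1, 54.5 and 44.8 (log2 difference 0.50 ± 0.09, limma adjusted p = 0.0492). Both had 3 siH19 libraries above the 3 siCtrl ones, yet Id4 was kept in 0 and Smad6 in 1 of the 6 leave-one-out fits. Tgfb2 overlapped between the vWAT groups at d0, at 5.95, 4.59 and 5.29 against 6.78, 6.74 and 4.93 FPKM. Of the other pathway genes in BAT cells at d0, Inhba (0.64 ± 0.04, limma adjusted p = 0.00638) was among those called higher and Htra1 (-0.45 ± 0.09, limma adjusted p = 0.0494) was called lower. None of 44 tested was called in vWAT cells at d0, nor any of 45 at d3. For those lists 1 TGF-beta target, Bhlhe40, was called in BAT cells at d0 and 2, Ctgf and Acta2, in vWAT cells at d0, all higher, and no tested BMP target was called in either. In both depots 6 of 8 adipocyte markers were called lower with siH19 at d0, with sums of 3171 to 3448 against 1597 to 2135 FPKM in BAT and 4167 to 4169 against 2448 to 2763 in vWAT cells, and the part of this in the values of the members was not tested.

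**Figure D2:**
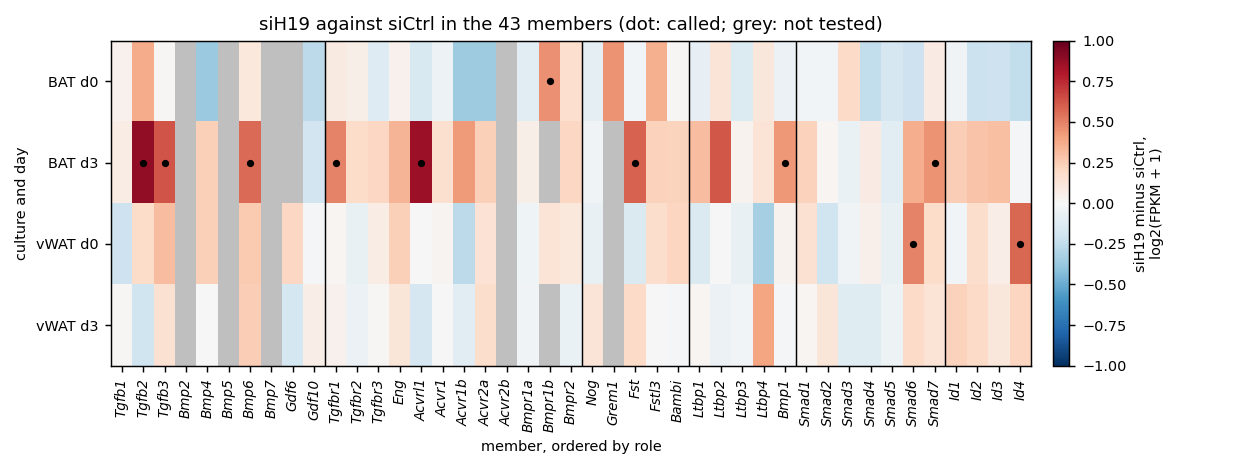
Difference of siH19 from siCtrl cells on the log2(FPKM + 1) scale (colour) for the 43 members (columns, by role: ligands, receptors, antagonists, latency and processing, Smads, Id genes) in BAT and vWAT cells at d0 and d3 (rows); black dots mark calls and grey cells members not tested. The 8 calls in BAT cells at d3 are all higher, and the vWAT d3 row holds none.

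The siH19 difference in BAT cells was then compared between d3 and d0 in 1 model over the 12 BAT libraries. Of 39 members tested, 13 had a higher difference at d3 than at d0 and none a lower one, where 9.06% of all genes passed, 7.79% as higher. The widest were Acvrl1 (1.01 ± 0.21, limma adjusted p = 0.0145), Acvr1b (0.78 ± 0.14, limma adjusted p = 0.00802), Tgfb3 (0.62 ± 0.07, limma adjusted p = 0.000966), Fst (0.61 ± 0.08, limma adjusted p = 0.00206), Acvr2a (0.59 ± 0.13, limma adjusted p = 0.0180) and Smad6 (0.57 ± 0.06, limma adjusted p = 0.000658). Id1, Id2 and Id3 were among the 13: siH19 minus siCtrl was -0.04, -0.22 and -0.20 on the log2 scale at d0 and 0.25, 0.28 and 0.30 at d3. Acvr2a likewise went from -0.35 at d0 to 0.24 at d3. Of all genes that passed, 86.0% were higher as fitted and 61.1% after rescaling, under which 9 members passed and Bmp6, Ltbp1, Id1 and Tgfbr1 did not. Of the 13, Ltbp1 passed in 2, Tgfbr1 in 5 and Bmp6 in 7 of the 12 leave-one-out fits and the other 10 in all 12, and with no filter on low values Bmp6 and Ltbp1 did not pass. In this test the siH19 difference was higher at d3 than at d0 for 6 of 8 adipocyte markers (median 0.73) and 3 of 8 precursor and fibroblast markers (median 0.37) and lower for 4 of 6 brown adipocyte markers (median -1.08), and their part in the values of the members was not tested. Tgfb2 did not pass (0.52 ± 0.27, limma adjusted p = 0.289).

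From d0 to d3 most members fell in siCtrl BAT cells. Of 38 tested, 32 were called lower and 2 higher, where 35.3% of all genes were called lower and 29.9% higher, 65.2% in all. The median member changed by -1.34 on the log2 scale and the median gene by -0.10. Bmp4, Ltbp1, Bambi, Grem1 and Bmpr1b reached the level for a test through their d0 libraries alone, so only a fall could be called in them. The 3 d3 libraries were all below the d0 libraries in 33 members and all above in 3, against 43.2% and 36.1% of all genes. All roles took part: 5 of 6 tested ligands, 9 of 11 receptors, 4 of 5 antagonists, 5 of 5 genes of latency and processing, 6 of 7 Smads and 3 of 4 Id genes were lower at d3. This comparison shares the 3 siCtrl d3 BAT libraries with the siH19 and the depot comparison at d3, so their directions are not set against each other, and each member's values are given side by side.

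The TGF-beta isoforms had the deepest falls among the ligands. Tgfb3 fell from 80.3, 78.3 and 77.7 FPKM at d0 to 6.41, 6.37 and 6.89 at d3, 12.02-fold (log2 difference -3.40 ± 0.05, limma adjusted p = 2.65e-08). Tgfb1 fell from 88.7, 85.03 and 83.3 to 10.2, 8.74 and 9.77, 8.96-fold (log2 difference -3.04 ± 0.06, limma adjusted p = 7.87e-08). Tgfb2 fell from 9.84, 8.32 and 9.95 to 1.64, 1.34 and 1.01 (log2 difference -2.16 ± 0.13, limma adjusted p = 6.63e-06). No d3 library of the 3 isoforms reached the lowest d0 library. Fst fell from 229, 206 and 226 to 21.8, 20.6 and 20.3 FPKM (log2 difference -3.34 ± 0.06, limma adjusted p = 3.7e-08), a 10.5-fold drop. Ltbp1, which anchors latent TGF-beta in the matrix, fell from 11.2, 13.2 and 13.04 to 0.972, 0.866 and 0.828 (log2 difference -2.83 ± 0.09, limma adjusted p = 3.46e-07). Ltbp2 fell from 358, 357 and 332 to 61.7, 39.1 and 59.4 (log2 difference -2.71 ± 0.17, limma adjusted p = 8.33e-06). Acvrl1 led the receptors, from 33.6, 31.5 and 31.1 to 5.53, 3.70 and 4.98 FPKM (log2 difference -2.54 ± 0.13, limma adjusted p = 2.89e-06).

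Other receptors followed at smaller size. Tgfbr1 (-2.34), Bmpr1b (-2.29), Acvr1 (-2.22) and Eng (-2.10) fell by more than 2 on the log2 scale, Tgfbr2 by less (-0.74). The exceptions were Bmpr1a, the main type I BMP receptor, at 25.7, 28.2 and 32.4 and 33.3, 26.7 and 29.1 FPKM (log2 difference 0.05 ± 0.11, limma adjusted p = 0.717), and the co-receptor Tgfbr3. Tgfbr3 rose from 18.5, 19.4 and 19.2 to 27.8, 24.6 and 23.7 (log2 difference 0.39 ± 0.07, limma adjusted p = 0.00196). Gdf10 was the other member to rise, from 6.84, 6.18 and 6.93 to 10.4, 11.9 and 8.49 FPKM (log2 difference 0.55 ± 0.12, limma adjusted p = 0.00534). The d3 libraries of Tgfbr3 and Gdf10 all lay above those of d0. Among the Smads, Smad2 was at 26.1, 27.8 and 26.4 and 23.99, 29.2 and 26.4 FPKM (log2 difference -0.02 ± 0.08, limma adjusted p = 0.859). Its TGF-beta arm partner Smad3 fell by 1.42 on the log2 scale and Smad4 by 1.07. Smad7 had the deepest fall of the Smads at -2.45. Of the Id genes, Id2, Id3 and Id4 fell (-1.42, -1.09 and -1.64). Id1 passed the adjusted p on the higher side under 1.3-fold, from 105, 100.2 and 99.7 to 115, 123 and 119.9 FPKM (log2 difference 0.23 ± 0.04, limma adjusted p = 0.00251). Nog passed the adjusted p on the lower side, also under 1.3-fold on the log2(FPKM + 1) scale, at 3.98 ± 0.520 against 2.90 ± 0.403 FPKM. The other members called lower were Grem1, Bmp6, Bmp1, Fstl3, Smad6, Acvr1b, Bmpr2, Smad1, Bmp4, Ltbp3, Bambi, Smad5, Ltbp4 and Acvr2a, from -2.22 to -0.48.

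Members fell in siCtrl vWAT cells too. Of 39 tested, 21 were called lower and 3 higher at d3, where 23.9% and 26.3% of all genes were, 50.3% in all, and the median member changed by -0.44 against 0.01 for the median gene. The d3 libraries were all below in 25 members and all above in 4, against 34.9% and 36.2% of all genes. Bmpr1b was tested through its d0 libraries alone, so only a fall could be called in it. Fst, Tgfb1, Ltbp1, Ltbp2 and Smad7 fell here too. Fst went from 194, 211 and 196 to 24.6, 24.6 and 25.9 FPKM (log2 difference -2.95 ± 0.05, limma adjusted p = 1.08e-07). Tgfb1 went from 60.9, 58.01 and 58.97 to 11.01, 9.93 and 10.7 (log2 difference -2.38 ± 0.05, limma adjusted p = 3.62e-07). Ltbp1 went from 32.7, 31.4 and 32.03 to 5.50, 4.71 and 5.16 (log2 difference -2.43 ± 0.07, limma adjusted p = 6.18e-07). No d3 library of these overlapped with d0. Ltbp2 fell from 438, 409.5 and 435 to 90.9, 107 and 102 (log2 difference -2.09 ± 0.06, limma adjusted p = 9.35e-07). Smad7 fell from 38.7, 42.7 and 44.6 to 7.81, 7.69 and 7.41 (log2 difference -2.31 ± 0.07, limma adjusted p = 7.41e-07). Gdf6, a BMP ligand of joints and skeleton that was listed at or below 0.523 FPKM in every BAT library, fell from 18.5, 18.6 and 19.6 to 2.96, 2.64 and 2.62 in vWAT cells (log2 difference -2.41 ± 0.07, limma adjusted p = 7.19e-07). The other falls but that of Id1 were those of Ltbp4, Acvr1, Smad3, Bmp4, Tgfbr1, Smad6, Bmpr1b, Bmpr2, Id2, Fstl3, Tgfb3, Bmp1, Smad5 and Smad2, from -1.14 to -0.41.

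Gdf10 moved the other way and the furthest of all rises, from 8.38, 7.76 and 7.09 FPKM at d0 to 60.6, 55.5 and 61.1 at d3, 7.63-fold (log2 difference 2.78 ± 0.07, limma adjusted p = 5.3e-07). Tgfbr3 rose from 30.4, 30.1 and 31.5 to 52.6, 48.1 and 54.2 (log2 difference 0.73 ± 0.06, limma adjusted p = 4.66e-05). Id4, which fell in BAT cells, rose from 16.2, 14.3 and 17.5 to 21.3, 21.8 and 21.6 (log2 difference 0.41 ± 0.08, limma adjusted p = 0.00314). The d3 libraries of all 3 lay above those of d0. Id1, not called in BAT cells, fell from 152, 160.0 and 157 to 76.4, 80.6 and 82.4 FPKM (log2 difference -0.96 ± 0.04, limma adjusted p = 4.05e-06). Tgfb2 was not called: its libraries were at 5.95, 4.59 and 5.29 at d0 and 7.25, 6.59 and 5.74 at d3 and overlapped (log2 difference 0.26 ± 0.12, limma adjusted p = 0.0854). Acvrl1 (0.00), Tgfbr2 (-0.06), Bmp6 (0.11) and Id3 (-0.01) had differences near 0 and were not called.

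**Figure D3:**
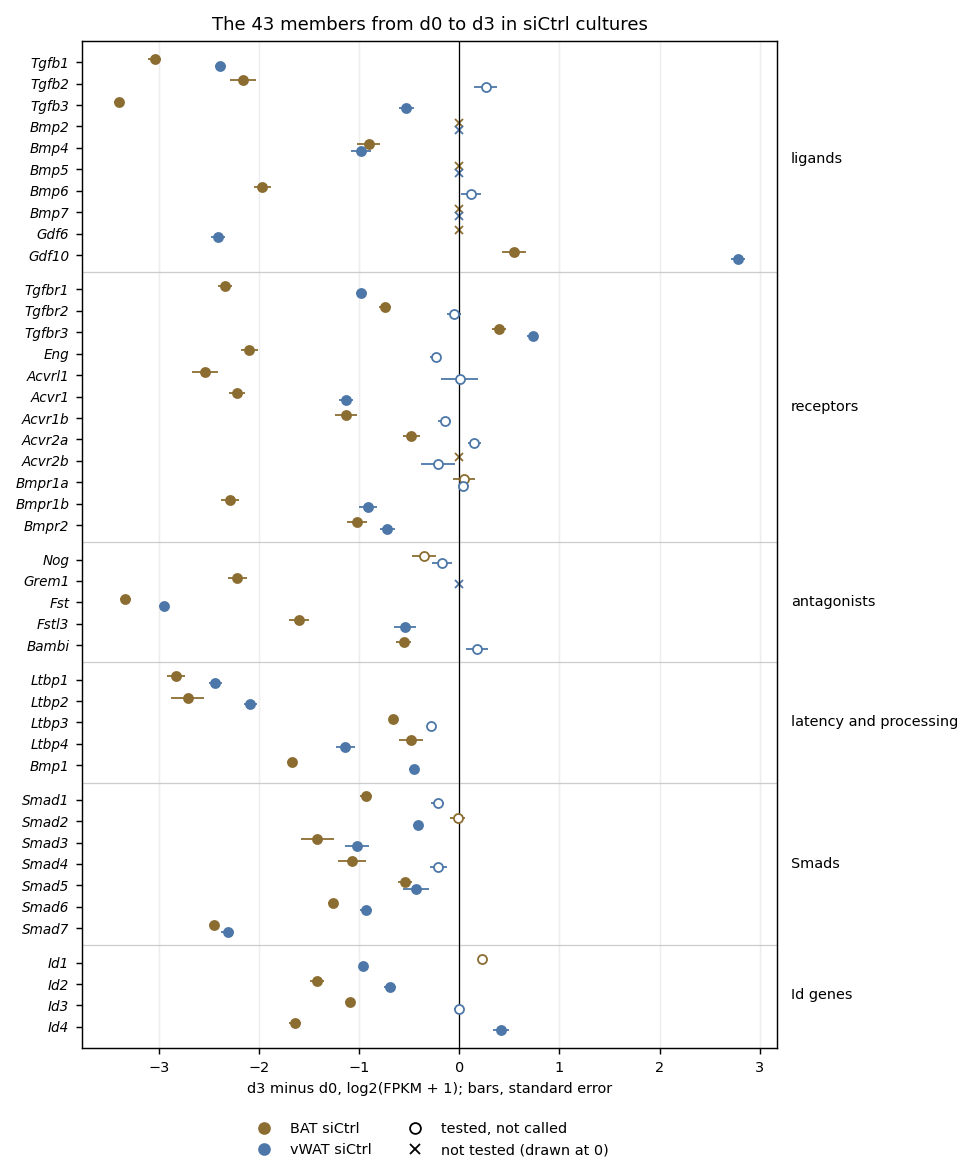
Change of each member from d0 to d3 in siCtrl BAT (brown) and vWAT (blue) cells, as the difference of log2(FPKM + 1) with its standard error (horizontal axis), members in rows by role; filled points are calls, open points tested members not called and crosses members not tested. BAT points lie left of the vWAT points for Tgfb2, Tgfb3, Bmp6, Acvrl1, Eng and Id4, while Tgfb1, Fst, Ltbp1, Ltbp2 and Smad7 lie below -2 in both depots and Gdf10 reaches 2.78 in vWAT cells.

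The difference between the 2 day changes was tested over the 12 siCtrl libraries. Of 40 members, 28 had a lower change in BAT than in vWAT cells and 4 a higher one, where 28.1% and 24.9% of all genes did, 53% in all. Tgfb3 (-2.87 ± 0.08, limma adjusted p = 1.88e-09), Acvrl1 (-2.54 ± 0.24, limma adjusted p = 7.59e-06), Tgfb2 (-2.42 ± 0.18, limma adjusted p = 9.4e-07) and Gdf10 (-2.24 ± 0.15, limma adjusted p = 4.04e-07) were the lowest. Gdf6 (2.17 ± 0.10, limma adjusted p = 4.24e-08), Id1 (1.19 ± 0.06, limma adjusted p = 4.47e-08), Ltbp4 (0.65 ± 0.16, limma adjusted p = 0.00498) and Smad2 (0.40 ± 0.09, limma adjusted p = 0.00361) were the 4 on the higher side. For Gdf6 the BAT libraries were at 0.353, 0.437 and 0.401 FPKM at d0 and 0.109, 0.164 and 0.267 at d3, under the level for a test within BAT cells. Grem1 was tested here through its BAT d0 libraries alone. The summed adipocyte markers given above also differed between the depots at d3, and the media differed as stated, and the parts of these in the values of the members were not tested.

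The day change was also measured in the siH19 cultures. In BAT cells 27 of 38 members were called lower and 3 higher (29.8% and 30.8% of all genes, 60.6% in all), at a median of -0.95 against -0.01 over all genes. The d3 libraries were all below in 31 and all above in 4, against 37.3% and 37.4% of all genes. Tgfb1 went from 89.6, 93.1 and 81.8 FPKM at d0 to 9.61, 10.4 and 10.2 at d3 (log2 difference -3.01 ± 0.07, limma adjusted p = 1e-07). Tgfb3 went from 82.8, 78.9 and 76.8 to 10.2, 11.3 and 10.5 (log2 difference -2.78 ± 0.06, limma adjusted p = 9.27e-08). Fst went from 210.2, 219.8 and 218 to 34.8, 30.1 and 31.05 (log2 difference -2.72 ± 0.06, limma adjusted p = 1.11e-07). All 3 fell by more than 2 on the log2 scale. So did Bmpr1b, from 6.49, 7.60 and 7.25 to 0.558, 0.395 and 0.430 (log2 difference -2.47 ± 0.10, limma adjusted p = 1.06e-06). It was tested through its d0 libraries alone, so only a fall could be called in it. Ltbp1 fell from 11.6, 11.8 and 11.8 to 1.29, 1.302 and 1.41 (log2 difference -2.45 ± 0.07, limma adjusted p = 3.29e-07). Grem1 fell from 8.66, 7.70 and 8.98 to 1.04, 0.631 and 0.777 (log2 difference -2.38 ± 0.12, limma adjusted p = 2.66e-06). Tgfb2 fell from 13.7, 13.3 and 10.3 to 2.36, 4.88 and 2.93 (log2 difference -1.65 ± 0.22, limma adjusted p = 0.000468). No d3 library of these reached a d0 library. The rises were those of Tgfbr3, Gdf10 and Id1. Tgfbr3 rose from 14.6, 18.6 and 19.2 to 30.9, 29.4 and 27.8 FPKM (log2 difference 0.73 ± 0.11, limma adjusted p = 0.000848). Gdf10 rose from 5.01, 5.80 and 5.34 to 9.66, 7.40 and 9.34 (log2 difference 0.61 ± 0.11, limma adjusted p = 0.00248). Id1 rose from 96.5, 102 and 98.96 to 145, 136 and 144 (log2 difference 0.51 ± 0.04, limma adjusted p = 5.19e-05).

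In vWAT cells with siH19, 21 of 38 members were called lower and 2 higher (24.5% and 28.2% of all genes, 52.7% in all), at a median of -0.41 against 0.03. The d3 libraries were all below in 24 and all above in 4, against 34.4% and 37.4% of all genes. Bmpr1b, called lower, was tested through its d0 libraries alone, so only a fall could be called in it. The deepest falls were those of Gdf6, Fst and Smad7. Gdf6 fell from 21.5, 22.8 and 21.5 to 2.08, 2.69 and 2.197 FPKM (log2 difference -2.79 ± 0.09, limma adjusted p = 9.47e-07). Fst fell from 165, 188 and 193 to 26.6, 31.4 and 28.6 (log2 difference -2.61 ± 0.08, limma adjusted p = 9.84e-07). Smad7 fell from 46.4, 50.6 and 46.5 to 7.51, 10.4 and 7.80 (log2 difference -2.36 ± 0.12, limma adjusted p = 6.15e-06). Ltbp1 (-2.27 ± 0.08, limma adjusted p = 1.45e-06), Tgfb1 (-2.17 ± 0.08, limma adjusted p = 1.5e-06) and Ltbp2 (-2.15 ± 0.07, limma adjusted p = 9.33e-07) came next. Ltbp1 was at 30.05, 30.4 and 26.5 FPKM at d0 and 5.41, 5.42 and 4.79 at d3. Tgfb1 was at 47.4, 52.2 and 54.1 and 9.74, 10.8 and 11.4, and Ltbp2 at 468, 412 and 407 and 100.2, 90.9 and 96.02. None of these overlapped between the days. Gdf10 rose from 7.59, 7.52 and 7.73 to 67.9, 57.3 and 60.2 FPKM (log2 difference 2.86 ± 0.07, limma adjusted p = 4.55e-07). Tgfbr3 rose from 34.3, 33.7 and 28.97 to 50.6, 51.4 and 53.9 (log2 difference 0.67 ± 0.07, limma adjusted p = 0.000217). Both rises were present in all 4 day comparisons. Tgfb2 again overlapped between the days (log2 difference -0.12 ± 0.21, limma adjusted p = 0.640).

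Most of the other pathway genes tested fell in BAT cells over these days. Of the other pathway genes tested, 37 of 46 were called lower and 3 higher in siCtrl BAT cells (median -1.45), and 25 of 46 lower and 7 higher in siCtrl vWAT cells (median -0.47). Of all genes tested, 35.3% were called lower and 29.9% higher in siCtrl BAT cells, and 23.9% and 26.3% in siCtrl vWAT cells. In siCtrl BAT cells 45 of the list averaged at least FPKM 1 at d0 and 39 at d3, in siCtrl vWAT cells 44 and 45. A gene of any list tested through its d0 libraries alone could only be called lower, and such genes were not counted. Thbs1 (-5.64 ± 0.12, limma adjusted p = 7.64e-08), Inhba (-4.94 ± 0.06, limma adjusted p = 1.39e-08) and Lrrc32 (-4.04 ± 0.08, limma adjusted p = 7.09e-08), a docking protein of latent TGF-beta, fell furthest in BAT cells. Acvr1c (3.39 ± 0.16, limma adjusted p = 1.99e-06), a type I receptor of mature adipocytes, Bmp3 (1.75 ± 0.08, limma adjusted p = 2.12e-06) and the phosphatase Ppm1a (0.52 ± 0.04, limma adjusted p = 1.58e-05) were the 3 rises. In vWAT cells Inhba (-5.76 ± 0.10, limma adjusted p = 1.1e-07), Thbs1 (-3.66 ± 0.03, limma adjusted p = 3.06e-08) and Lrrc32 (-2.88 ± 0.06, limma adjusted p = 2.01e-07) fell furthest. Acvr1c (2.02 ± 0.14, limma adjusted p = 2.89e-05), Chrdl1 (0.99 ± 0.07, limma adjusted p = 4.11e-05) and Chrd (0.88 ± 0.11, limma adjusted p = 0.00044) rose most. With siH19 the counts were 35 lower and 3 higher of 45 in BAT cells and 25 lower and 5 higher of 46 in vWAT cells. The shares of all genes there were 29.8% lower and 30.8% higher in BAT cells and 24.5% and 28.2% in vWAT cells. TGF-beta targets were called lower in 18 of 20 cases in siCtrl BAT cells (median -2.39) and in 16 of 20 in siCtrl vWAT cells (median -1.44), with Cdkn2b the only one called higher in the latter. BMP targets outside the members had 5 lower and 1 higher of 7 tested in siCtrl BAT cells and 3 lower of 7 in siCtrl vWAT cells. Over the same days all 8 markers of precursors and fibroblasts fell in siCtrl BAT cells, in which their summed FPKM at d3 was 727 to 834 against 2213 to 2312 in vWAT cells.

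Brown and white precursors differed in which members they expressed. At d0, of 40 members tested between siCtrl BAT and vWAT cells, 11 were called higher in BAT cells and 12 lower, where 10.2% and 21% of all genes were, 31.2% in all. The median gene lay at -0.13, and the median member at -0.11. Grem1 was tested through its BAT libraries alone and Gdf6 through its vWAT libraries alone, so the direction of both calls was fixed. In 16 members all BAT libraries were above and in 19 all below those of vWAT, against 18.6% and 40.3% of all genes. After rescaling by the median ratio, which moved the median gene to -0.02, 13 members were higher and 10 lower, and Fstl3 and Bmpr1a lost their calls. The share of higher calls among all genes called went from 32.8% to 48.4%.

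Tgfb3 was the ligand most enriched in BAT precursors, at 80.3, 78.3 and 77.7 FPKM against 12.1, 10.99 and 12.1 in vWAT precursors (log2 difference 2.65 ± 0.05, limma adjusted p = 4.91e-07), 6.72 times the vWAT mean. Grem1, a trap of BMP ligands, was at 5.83, 6.58 and 5.37 against 0.521, 0.723 and 0.506 FPKM (log2 difference 2.13 ± 0.10, limma adjusted p = 1.43e-05) and so lay below FPKM 1 in vWAT cells. Id4, an inhibitor of basic helix-loop-helix factors, was at 53.8, 48.3 and 47.1 against 16.2, 14.3 and 17.5 (log2 difference 1.58 ± 0.09, limma adjusted p = 2.34e-05). None of these overlapped between the depots. Bmpr1b was at 4.60, 4.96 and 5.11 against 1.04, 1.12 and 1.26 (log2 difference 1.46 ± 0.08, limma adjusted p = 2.87e-05). The activin type II receptor Acvr2a was at 13.8, 13.1 and 14.4 against 6.91, 6.54 and 6.92 (log2 difference 0.92 ± 0.06, limma adjusted p = 6.19e-05). The co-receptor Eng was at 47.2, 47.7 and 44.4 against 26.4, 24.05 and 25.00 (log2 difference 0.86 ± 0.05, limma adjusted p = 4.09e-05), and none of these overlapped either. Smaller excesses in BAT cells were those of Smad6, Tgfb2, Tgfb1, Smad7 and Bmp6, from 0.85 down to 0.45. Tgfb2 was at 9.84, 8.32 and 9.95 against 5.95, 4.59 and 5.29 FPKM (log2 difference 0.73 ± 0.11, limma adjusted p = 0.00210).

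Gdf6 had the widest gap of all, at 0.353, 0.437 and 0.401 FPKM in BAT and 18.5, 18.6 and 19.6 in vWAT precursors (log2 difference -3.83 ± 0.07, limma adjusted p = 4.06e-07). Bmp4 was also lower in BAT precursors, at 2.46, 2.09 and 2.16 against 7.79, 8.43 and 9.11 (log2 difference -1.54 ± 0.09, limma adjusted p = 2.84e-05). The type II receptor Tgfbr2 stood at 21.9, 23.3 and 24.4 against 53.9, 59.7 and 59.4 (log2 difference -1.28 ± 0.06, limma adjusted p = 1.49e-05). The libraries of the depots did not overlap in these 3. Its partner Tgfbr1 was at 50.1 ± 3.41 against 59.3 ± 1.80 FPKM and under 1.3-fold. Ltbp1 was at 11.2, 13.2 and 13.04 against 32.7, 31.4 and 32.03 (log2 difference -1.30 ± 0.07, limma adjusted p = 2.27e-05). Ltbp4 was at 6.72, 5.91 and 5.43 against 15.2, 15.1 and 16.9 (log2 difference -1.26 ± 0.09, limma adjusted p = 7.15e-05). Smad3 was at 14.6, 16.8 and 11.7 against 27.9, 27.4 and 30.8 (log2 difference -0.96 ± 0.12, limma adjusted p = 0.00105). In each of these the 3 BAT libraries lay below the 3 vWAT libraries. Tgfbr3, Acvr1b, Id1, Id2, Fstl3 and Bmpr1a were also called lower in BAT cells, with differences of -0.66 to -0.41. Not called were Gdf10, Bmpr2, Acvrl1, Acvr1, Tgfbr1, Acvr2b, Nog, Fst, Bambi, Ltbp2, Bmp1, Ltbp3, Smad1, Smad2, Smad4, Smad5 and Id3.

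At d3 most members were lower in BAT than in vWAT cells. Of 37 members tested, 2 were called higher in BAT than in vWAT siCtrl cells and 26 lower, where 16.5% and 32.1% of all genes were, 48.6% in all. The median member lay at -0.90 against -0.16 for the median gene. Bmp4, Ltbp1, Bambi and Gdf6 were tested through their vWAT libraries alone, so only lower calls were possible in them. All BAT libraries were above in 5 members and below in 29, against 25.3% and 45.1% of all genes. Rescaling moved the median gene to -0.04, left 5 members higher and 24 lower, took the calls of Id4 and Bmpr1a away and changed the share of higher calls among all genes called from 33.9% to 45.6%. The 2 higher in BAT cells were Id1 and Smad6. Id1 was at 115, 123 and 119.9 FPKM against 76.4, 80.6 and 82.4 (log2 difference 0.57 ± 0.05, limma adjusted p = 5.01e-05). Smad6 was at 28.7, 25.95 and 26.7 against 17.3, 19.8 and 18.5 (log2 difference 0.53 ± 0.07, limma adjusted p = 0.000585). At d0 Id1 had been the lower one in BAT cells, at 105, 100.2 and 99.7 against 152, 160.0 and 157 FPKM (log2 difference -0.62 ± 0.04, limma adjusted p = 4.56e-05).

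The 6 largest gaps at d3 were in Gdf10, Acvrl1, Tgfbr2, Tgfb2, Ltbp1 and Gdf6. Gdf10 was at 10.4, 11.9 and 8.49 FPKM in BAT and 60.6, 55.5 and 61.1 in vWAT cells (log2 difference -2.43 ± 0.11, limma adjusted p = 4.96e-06), where at d0 the depots had been close (-0.19). Acvrl1 was at 5.53, 3.70 and 4.98 against 22.9, 33.1 and 21.8 (log2 difference -2.22 ± 0.19, limma adjusted p = 7.13e-05). Tgfbr2 was at 14.00, 12.9 and 13.5 against 52.8, 53.1 and 60.4 (log2 difference -1.96 ± 0.07, limma adjusted p = 1.7e-06). The BAT libraries were all below the vWAT ones. Tgfb2 was at 1.64, 1.34 and 1.01 against 7.25, 6.59 and 5.74 (log2 difference -1.70 ± 0.13, limma adjusted p = 4.58e-05), the reverse of its order at d0. Ltbp1 was at 0.972, 0.866 and 0.828 against 5.50, 4.71 and 5.16 (log2 difference -1.69 ± 0.09, limma adjusted p = 7.61e-06). Gdf6 was at 0.109, 0.164 and 0.267 against 2.96, 2.64 and 2.62 (log2 difference -1.66 ± 0.09, limma adjusted p = 1.08e-05), and these libraries stood apart as well. The other 20 members called lower ran from -1.63 for Bmp6 to -0.40 for Bmpr1a and included the receptors Tgfbr1 (-1.60) and Acvr1b (-1.62), Smad3 (-1.36) and all of Id2, Id3 and Id4. Bmpr2, Acvr2a, Nog, Fst, Smad2, Smad5 and Smad7 were not called. Tgfb3, 6.72 times higher in BAT cells at d0, was at 6.41, 6.37 and 6.89 against 7.85, 8.30 and 7.30 at d3 and under 1.3-fold (log2 difference -0.22 ± 0.08, limma adjusted p = 0.0370). Tgfb1 was near the same level in both, 9.56 ± 0.737 against 10.6 ± 0.560 FPKM (log2 difference -0.13 ± 0.08, limma adjusted p = 0.188).

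**Figure D4:**
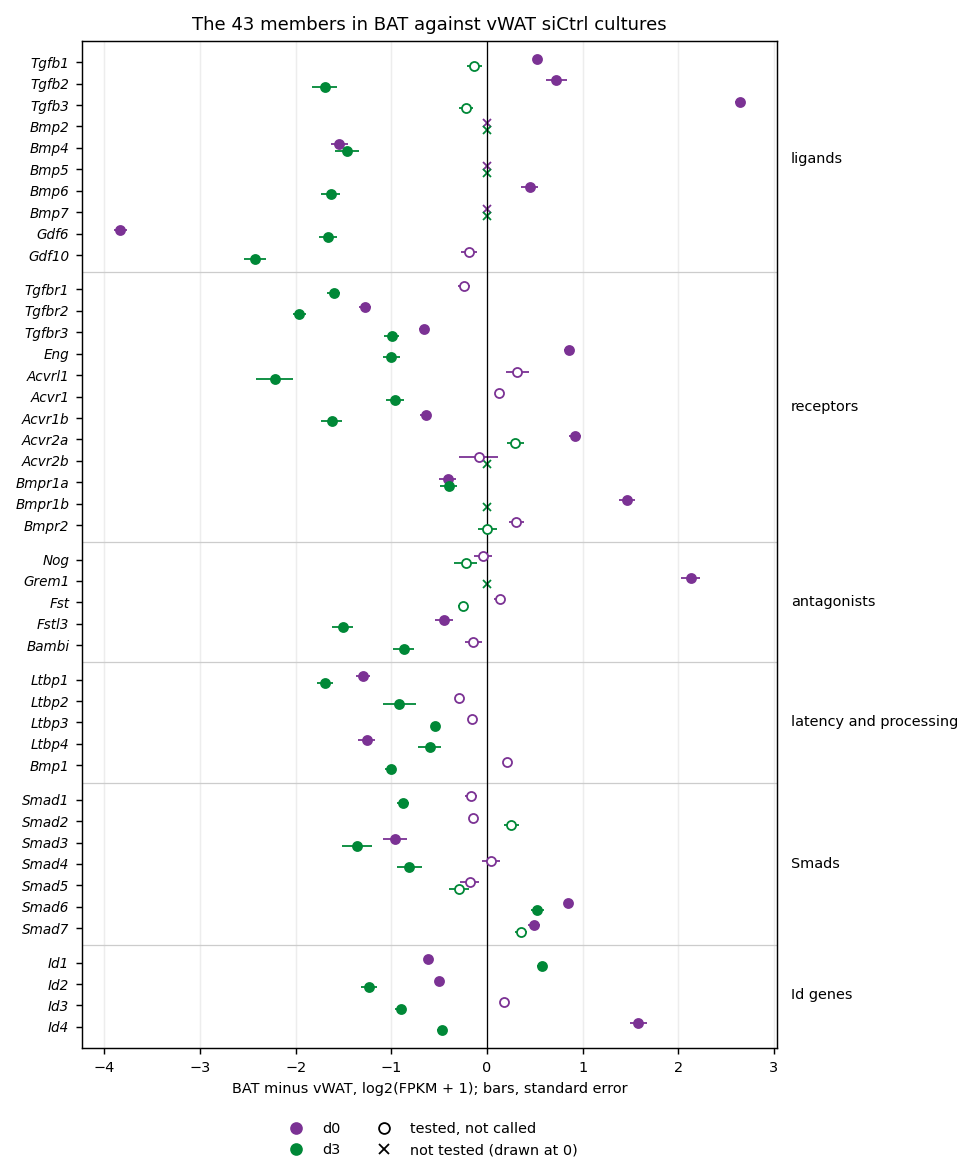
Difference of BAT from vWAT siCtrl cells at d0 (purple) and d3 (green) on the log2(FPKM + 1) scale with its standard error, members in rows by role; filled points are calls, open points tested members not called and crosses members not tested. At d0 Tgfb3, Grem1, Id4 and Bmpr1b lie to the right and Gdf6 at -3.83, and at d3 all calls but Id1 and Smad6 lie left of 0.

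The other pathway genes also differed between depots: 18 of 47 tested were called higher and 9 lower in BAT cells at d0, and 5 higher and 29 lower of 45 at d3. Of all genes tested, 10.2% were called higher and 21% lower at d0, and 16.5% and 32.1% at d3. At d0 45 of the list averaged at least FPKM 1 in BAT and 44 in vWAT cells, at d3 39 and 45. A gene tested through 1 depot alone could be called in 1 direction only, and such genes were not counted. The same limit holds for the marker lists: no skeletal muscle marker averaged FPKM 1 in vWAT cells, and 1 mesothelial marker did in BAT cells. At d0 Chrdl1 (2.72 ± 0.10, limma adjusted p = 4.08e-06) and the ligand-processing protease Pcsk6 (2.17 ± 0.06, limma adjusted p = 1.12e-06) were among those called higher in BAT cells. Bmper (-1.85 ± 0.07, limma adjusted p = 5.45e-06), Itgb8 (-1.80 ± 0.10, limma adjusted p = 2.31e-05) and Dcn (-1.15 ± 0.05, limma adjusted p = 6.44e-06) were the largest deficits. At d3 Bmp3 (1.52 ± 0.08, limma adjusted p = 1.01e-05) and Acvr1c (1.09 ± 0.14, limma adjusted p = 0.000585) were among those called higher in BAT cells. Dcn (-2.97 ± 0.04, limma adjusted p = 1.1e-07), Inhbb (-2.67 ± 0.09, limma adjusted p = 1.33e-06) and Bmper (-2.52 ± 0.06, limma adjusted p = 4.83e-07) were lower. Dcn is also a fibroblast marker. TGF-beta targets had 10 of 20 higher and 3 lower in BAT cells at d0, and 5 higher and 12 lower at d3. The tested BMP targets outside the members had 3 of 8 higher and none lower at d0 and 3 of 7 higher and 1 lower at d3. Markers of macrophages, 8 of 9 at d0 and 9 of 9 at d3, and of mesothelium, 5 of 5 at d0 and 4 of 5 at d3, were lower in BAT cells as well, those of skeletal muscle higher (4 of 4 and 3 of 3), and their part in the depot differences of the members was not tested.

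Id3 and Ltbp2 had the highest mean FPKM of the members over the 8 groups, Id3 from 174 ± 11.7 FPKM (SD, n = 3) in siCtrl BAT cells at d3 to 371 ± 7.21 in the same cells at d0, and Ltbp2 from 53.4 ± 12.4 to 429 ± 34.2. The summed FPKM of all 43 was 2133 to 2168 in siCtrl BAT cells at d0, 734 to 783 at d3, 2128 to 2144 in siCtrl vWAT cells at d0 and 1253 to 1313 at d3. In siH19 cells at d3 it was 934 to 955 in BAT and 1319 to 1356 in vWAT. Bmp2, Bmp5 and Bmp7 were not tested in any comparison: Bmp2 reached at most 1.09 ± 0.188 FPKM, in siH19 vWAT cells at d0, Bmp5 at most 0.977 ± 0.470, in siCtrl BAT cells at d0, and Bmp7 at most 0.139 ± 0.0713. Acvr2b had group means from 0.478 ± 0.0286 to 1.19 ± 0.365 FPKM. Bmp7 is an inducer of brown adipogenesis when given to cells, and Acvr2b is a receptor for activins and myostatin.

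**Figure D5:**
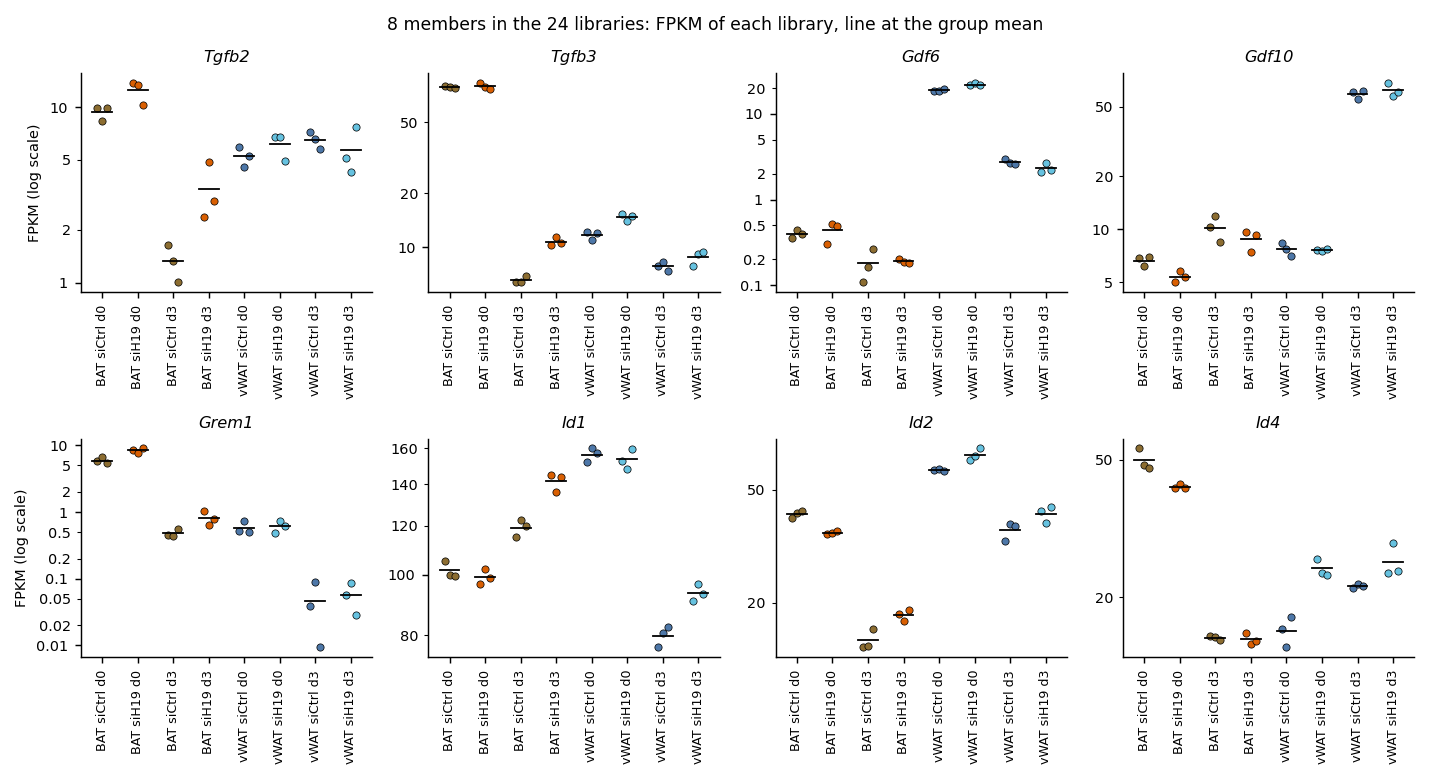
FPKM (log axis) of Tgfb2, Tgfb3, Gdf6, Gdf10, Grem1, Id1, Id2 and Id4 in the 24 libraries; each point is 1 library and the line the mean of a group (n = 3), in the order BAT d0, BAT d3, vWAT d0, vWAT d3 with siCtrl before siH19. Gdf6 stays under 0.6 FPKM in BAT cells, Gdf10 has its highest values in the vWAT d3 groups, and Tgfb2 and Id4 are lower at d3 than at d0 in BAT cells.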

How the data were processed

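RNA was sequenced from 24 libraries in 8 groups of 3. Per the submitters' notes and the study's methods, the authors mapped reads to GRCm38.p5 with TopHat2 2.0.10 and computed gene levels with Cufflinks (2.2.1 in the notes), where STAR, FastQC 0.10.1, DESeq2 and R 3.2.2 are also named. The deposited values are FPKM per gene and library, as read from the values and the tools, since the table itself names no unit. FPKM keeps no read counts, and depth, which limits the precision of low genes, is known only as relative depth. Between 10 and 36 genes that are otherwise abundant were listed at 0 in a library, which can be a failed estimate, and 2 members, Bmp5 and Bmp7, were at 0 in some library.

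Groups follow the labels for depot, siRNA and day. The sample titles write siKO for the control, and siCtrl rests on the siRNA label of those samples, which gives a non-targeting control. The titles write WAT, and vWAT rests on the tissue label, epididymal fat. Each comparison was fitted on its own libraries as log2(FPKM + 1) with limma 3.58.1 (empirical Bayes with trend, two-sided) in R 4.3.3, over genes at FPKM 1 or more in at least 3 libraries, with Benjamini-Hochberg adjustment over all genes tested. A call needs an adjusted p under 0.05 and, outside the tests of a difference between differences, 1.3-fold. Intervals are 95%. The scripts were tested on simulated data. Tables were read and drawn with Python 3.11.15, numpy 2.4.6, pandas 2.3.3 and matplotlib 3.10.9.

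The members and lists were chosen with earlier results of these data known. All 43 members are accounted for. Full values are given for called members whose libraries do not overlap, up to the 6 largest rises and 6 largest falls of a comparison, for Tgfb2 throughout and for H19, and up to 3 rises and 3 falls are named among the other pathway genes. Lists are described by counts and medians and not tested. Alternatives were a pseudocount of 0.1, no filter, no minimum fold, median-ratio scaling, all 24 libraries in 1 fit, a replicate block and leaving out each library.

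Same-numbered libraries of the groups compared did not deviate together: the correlation of their deviations from the group means ran from -0.143 to 0.0880 over 30 pairs in 10 comparisons. Promoter windows and their build are those of the RefSeq table, and sequence of members outside that table was not used here.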

Additional observations from a re-analysis of the deposited data

Results flagged for a closer look

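The values below are differences between 2 log2 differences that passed a test of the difference itself (limma, adjusted p under 0.05 over all genes), and no explanation was weighed for them. In the siH19 difference at d3, BAT minus vWAT, they were 0.48 for the ligand Tgfb3, 1.02 for Acvrl1, 0.54 for Acvr1b and 0.45 for Tgfbr1 among the receptors, 0.40 for the antagonist Fst and 0.45 for the protease Bmp1. Of these Tgfb3 passed in 10, Acvrl1 and Acvr1b in 5 each and Fst in 4 of the 12 fits that leave out 1 library, and Acvrl1, Acvr1b and Fst did not pass with no filter on low values.

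In the siH19 difference in BAT cells, d3 minus d0, Tgfb3 stood at 0.62 and Bmp6 at 0.47 among the ligands. The receptors Acvrl1, Acvr1b, Acvr2a and Tgfbr1 stood at 1.01, 0.78, 0.59 and 0.41. Fst stood at 0.61, Bmp1 at 0.49, Ltbp1 at 0.39 and Smad6 at 0.57, and the Id genes Id1, Id2 and Id3 at 0.28, 0.50 and 0.51. Of these Bmp6 passed in 7, Tgfbr1 in 5 and Ltbp1 in 2 of the 12 fits that leave out 1 library, and Bmp6 and Ltbp1 did not pass with no filter.

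In the change from d0 to d3 in siCtrl cells, BAT minus vWAT, most of these values lay below 0. The ligands Tgfb1, Tgfb2, Tgfb3, Bmp6 and Gdf10 stood at -0.65, -2.42, -2.87, -2.08 and -2.24, and Gdf6 at 2.17. The TGF-beta receptors Tgfbr1, Tgfbr2 and Tgfbr3 stood at -1.36, -0.68 and -0.34, the type I receptors Acvrl1, Acvr1, Acvr1b and Bmpr1b at -2.54, -1.09, -0.98 and -1.38, Acvr2a at -0.63 and Eng at -1.86. The antagonists Grem1, Fst, Fstl3 and Bambi stood at -1.62, -0.38, -1.06 and -0.73. Of the genes of latency and processing, Bmp1 stood at -1.21, Ltbp1 at -0.40, Ltbp2 at -0.62, Ltbp3 at -0.38 and Ltbp4 at 0.65. Smad1, Smad4 and Smad6 stood at -0.72, -0.86 and -0.32 and Smad2 at 0.40. Id2, Id3 and Id4 stood at -0.73, -1.08 and -2.05, and Id1 at 1.19.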

How the results depend on the processing

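Of 171 alternative counts of called members over the 13 comparisons, 142 stayed within 1.5 times the count reported. Alternative differences of single called members numbered 2898 where the member was still tested. Of these 2769 kept their call, 129 lost it and 0 changed sign. Alternatives in which a called member was no longer tested are not among the 2898. Dropping any 1 BAT siCtrl library of d0 left 5 of the 34 members called in that day comparison without a test. Dropping any 1 vWAT siCtrl library of d3 did so for 4 of the 28 called between the depots at d3. The counts that moved were those of small siRNA differences. For siH19 in BAT cells at d3, 8 members became 5 with no filter on low FPKM and 5 with the replicate block, and 5 to 9 when 1 library was left out. For siH19 in BAT cells at d0, 1 became 0 with no filter, 3 with no minimum fold change, 2 with all 24 libraries in 1 fit, 0 with the replicate block and 0 without any 1 library. For siH19 in vWAT cells at d0, 2 became 1 at a pseudocount of 0.1, 0 with no filter, 0 with the replicate block and 0 to 1 when 1 library was left out. For the difference between the depots in the siH19 difference at d3, 6 became 3 with no filter and 2 to 8 when 1 library was left out. Leaving out a library or adding the block leaves fewer degrees of freedom, and no filter adds genes to the adjustment; beyond that the cause was not tested. Same-numbered libraries did not deviate together, which cannot exclude that they were prepared together, and the block was used as a check. The block moved no other count of members by more than 1.5 times. With the block Fst and Acvrl1 no longer passed in the test between depots, nor Ltbp1 in that between days. The depth in reads is unknown, which limits what can be said of members near FPKM 1, such as Acvr2b.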
